A study of Mus musculus with 17 samples.

Results

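The histone genes comprised the 49 genes, of 22180 measured through probe sets with 1 gene symbol, whose symbol begins with H1f and a digit, H2a, H2b, H4c, H4f or Macroh2a, without a hyphen. Symbols starting H3c or H3f were also sought, and none had a probe set with 1 symbol. Replication-dependent genes, which supply histones for newly copied DNA, numbered 23: 4 for the linker histone H1, 5 for H2A, 7 for H2B and 7 for H4. Of these, 18 lie on chromosome 13 and 5 on chromosome 3. Another 9 were counted as variants by their symbols alone (H1f10, H2aj, H2aw, H2ax, H2az1, H2az2, Macroh2a1, Macroh2a2 and Macroh2a3, the last listed by RefSeq as a transcribed pseudogene). Whether each is made outside DNA replication was not tested, and the group may hold genes also used in it. A further 16 belong to germline histone families, and H4f16 was left unclassified. Each gene was read from 1 probe set, the one with the highest mean where a gene had several (3 members). H1f0, H3f3a and H3f3b were not analysed here as single genes.

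Values are log2 expression values from 17 Affymetrix Mouse Gene 2.0 ST arrays of cells sorted by flow cytometry. The marrow populations were HSC (hematopoietic stem cells), LMPP (lymphoid-primed multipotent progenitors), flt3+ CMP and flt3- CMP (common myeloid progenitors with and without surface Flt3), CLP (common lymphoid progenitors), EILP (early innate lymphoid progenitors) and NK (natural killer cells). The thymus gave ETP (early thymic progenitors) and DN3, a later thymocyte stage. Every population had 2 arrays except EILP, which had 1. The mice were chimeras, made by giving marrow of TCF-1 GFP reporter donors to B6 CD45.1 recipients after 900 rads of irradiation. They were studied 12 weeks later, and cells of several chimeras were combined. Not given in the sources used here are the age and sex of the mice, the sorting gates and whether donor cells alone were sorted. No label ties a replicate to separate mice, so the spread behind each p-value is that between samples and may be technical.

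Array medians lay between 4.45 and 4.62. Of the marker lists checked, those for HSC, LMPP, CLP, ETP and DN3 had their highest average in the population they name. The CMP list was highest in flt3- CMP, and the NK list averaged 8.84 in NK against at most 4.39 elsewhere. Single genes could peak elsewhere. Of the ETP list Notch1, Hes1 and Gata3 were highest in DN3 (8.77, 7.92 and 6.39, against 7.98, 7.46 and 5.56 in ETP). Its Cd44 was highest in EILP and its Kit in ETP. Of the CLP list Il7r and Dntt were highest in DN3 and Ebf1 in CLP. Cd34 of the LMPP list peaked in flt3- CMP, and Gata2 of the CMP list in HSC. The EILP list averaged 6.75 in EILP and 6.91 in NK. Neutrophil markers (Ltf, Camp, Ngp, S100a8, S100a9) averaged 10.43 to 11.96 in the 7 marrow populations, 5.30 in ETP and 4.57 in DN3. Red cell markers averaged 5.57 in LMPP, 7.32 in CLP, 7.26 in EILP, 6.69 in NK and 4.84 in ETP, and plasma and mature B cell markers 4.15 in LMPP, 5.69 in CLP, 5.29 in EILP and 4.86 in NK. Their part in the differences of CLP and EILP from other populations was not tested. Y-linked genes were high on the 5 CLP, EILP and DN3 arrays (means 7.03 to 7.66) and low on the other 12 (3.03 to 3.38). A comparison of CLP, EILP or DN3 with a population outside those 3 crosses that split, and there the Y-linked grouping and the cell population cannot be told apart.

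Histones package DNA into nucleosomes, which are built from pairs of H2A, H2B, H3 and H4 around which DNA winds, with H1 bound where the DNA enters and leaves. The replication-dependent genes are clustered, lack introns and are transcribed mainly in S phase. Their mRNAs end in a stem-loop bound by SLBP instead of a poly(A) tail, and they are degraded when DNA synthesis stops. Most variant genes are scattered, carry introns, give polyadenylated mRNA and are expressed through the cell cycle. Stem cells divide rarely, while many committed progenitors and thymocytes divide often. How the NuGEN Pico V2 amplification was primed is not given in the sources, and its effect on mRNAs without a poly(A) tail was not tested. Copies of a replication-dependent gene are nearly identical in their coding part, so a probe set may also read the RNA of other copies and the value of a single member is uncertain.

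RefSeq upstream sequences (mouse build GRCm38.p6) were found for 45 of the 49 members and not for H2ax, H2bc21, H4c14 and Macroh2a3. Printed here are the stretches before the starts of the 5 genes with the largest falls from LMPP to ETP, written 5′ to 3′ on the gene's strand and ending at the base before the start. Capitals mark matches, on either strand, to CCAAT (bound by the factor NF-Y), TATAAA (the core promoter element bound by TBP), TTTGCAT (part of the octamer element known from H2B promoters) and AAACACA (part of a box known from H1 promoters). The positions are chr13:23763418-23763667 on the plus strand for H1f1, chr13:21780626-21780875 on the minus strand for H1f5, chr13:21753913-21754075 on the minus strand for H2ac15, chr13:22035644-22035820 on the plus strand for H2bc12, and chr3:96269450-96269699 on the plus strand for H2bc18. The H2ac15 and H2bc12 stretches stop where the neighbouring genes H2bc15 and H2ac12 begin on the opposite strand.
H1f1: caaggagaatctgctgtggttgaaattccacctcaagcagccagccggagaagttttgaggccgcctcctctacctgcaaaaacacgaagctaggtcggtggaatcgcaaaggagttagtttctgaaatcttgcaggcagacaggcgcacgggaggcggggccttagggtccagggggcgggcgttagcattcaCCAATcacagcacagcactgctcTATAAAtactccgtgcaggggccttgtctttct
H1f5: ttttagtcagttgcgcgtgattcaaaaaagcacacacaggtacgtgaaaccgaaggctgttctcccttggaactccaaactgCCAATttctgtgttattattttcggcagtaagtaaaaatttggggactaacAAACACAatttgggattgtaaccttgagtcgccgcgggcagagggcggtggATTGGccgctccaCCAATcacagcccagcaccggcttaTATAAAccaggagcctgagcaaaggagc
H2ac15: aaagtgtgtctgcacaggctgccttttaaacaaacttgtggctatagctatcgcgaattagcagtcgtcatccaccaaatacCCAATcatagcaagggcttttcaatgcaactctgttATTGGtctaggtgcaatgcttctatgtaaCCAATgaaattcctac
H2bc12: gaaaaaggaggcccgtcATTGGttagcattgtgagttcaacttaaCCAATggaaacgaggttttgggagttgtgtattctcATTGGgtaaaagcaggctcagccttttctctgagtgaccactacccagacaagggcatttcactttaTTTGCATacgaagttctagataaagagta
H2bc18: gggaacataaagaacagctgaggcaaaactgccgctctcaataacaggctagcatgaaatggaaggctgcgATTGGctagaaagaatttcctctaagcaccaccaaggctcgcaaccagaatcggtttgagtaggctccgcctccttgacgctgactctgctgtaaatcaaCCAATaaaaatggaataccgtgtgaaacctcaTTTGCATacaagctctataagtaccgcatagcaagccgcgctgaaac

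Over the 250 bases before each start, CCAAT matched in 16 of the 21 replication-dependent genes that had a sequence (76.2%), against 33.8% of all 32851 promoters of the RefSeq table. All 4 H1, 5 H2A and 6 H2B genes held it, and 1 of 6 H4 genes. It was also in 4 of 7 variant genes (57.1%) and 9 of 16 germline genes (56.2%). TATAAA matched in 11 of 21 (52.4%), against 12.4% of all promoters, 0 of 7 variant genes and 4 of 16 germline genes. Any position in the window counted. The nearest match began 10 to 42 bases before the start in H1f1, H1f3, H1f5, H2ac20, H2ac21, H2bc3 and H4c12. In H2bc12, H2bc22, H4c9 and H4c17 it began 128 to 212 bases before the start. That of H2bc12, at 198, lies beyond its printed stretch, where the window runs into H2ac12. TTTGCAT was in 6 of 21 replication-dependent genes (28.6%), 4 of them among the 6 H2B genes, in 1 of 7 variant genes, in 5 of 16 germline genes (31.2%) and in 4.12% of all promoters. It began 29 bases before the start of H2bc12 and 47 before that of H2bc18. AAACACA was in 4 of 21 (19.0%), 3 of them among the 4 H1 genes, in 0 of 7 variant genes, in 3 of 16 germline genes (18.8%) and in 6.25% of all promoters. Divergent gene pairs share bases of these windows, so the genes do not count as independent, and a match describes letters only.

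Among the 9 populations, 10 of 23 replication-dependent genes and 6 of 9 variant genes differed (limma moderated F test, adjusted by Benjamini-Hochberg over all genes, threshold 0.05), where 22.7% of all genes did. The replication-dependent genes were H1f1, H1f2, H1f5, H2ac10, H2ac15, H2ac20, H2ac21, H2bc12, H2bc18 and H4c9. Of the replication-dependent genes, 15 had a mean at or above 4.54, the median of all values. The 8 below it (H2ac12, H2bc14, H2bc22, H4c1, H4c2, H4c8, H4c14 and H4c17) had means up to 4.18, and none of them passed the F test. The size of a difference is uncertain where 1 side lies below 4.54. In 12 of the 23 replication-dependent genes both ETP arrays lay below all 13 marrow arrays, where 4.29% of all genes did. They were the 10 genes above with H2bc3 and H4c12, and of the variants H2ax was the 1 that did. In these bulk samples, fewer cells of a type and less RNA per cell cannot be told apart.

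**Figure D1:**
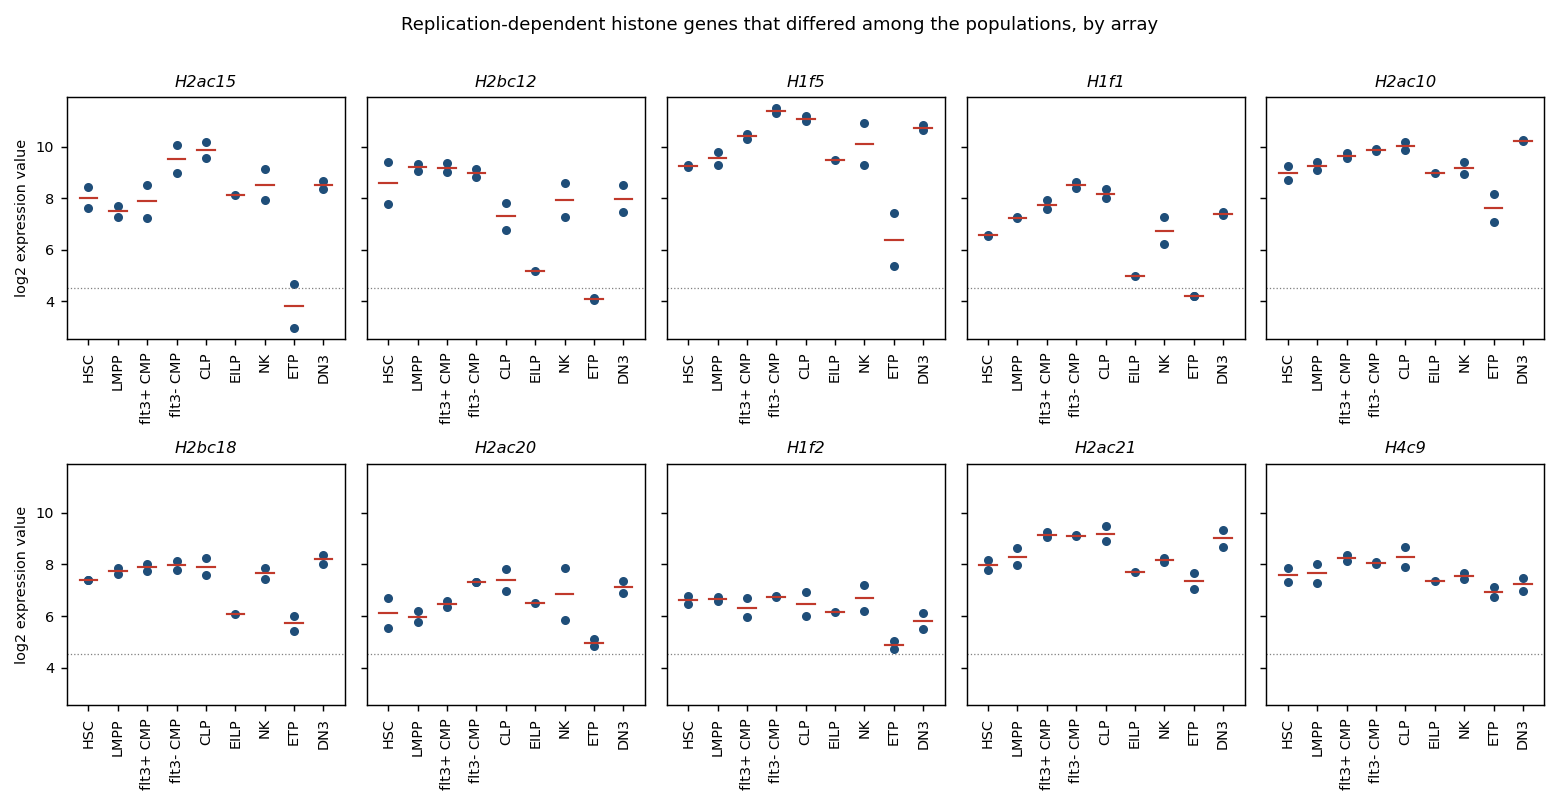
Log2 expression values (y axis) of the 10 replication-dependent histone genes that differed among the 9 populations (x axis), with a point per array, a red line at the population mean and a dotted line at 4.54, the median of all values. In all 10 panels both ETP points lie below every one of the 13 marrow arrays, and in the H2bc12, H1f1 and H2bc18 panels the EILP point is next lowest.

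Linker histones bind between nucleosomes, and the replication-dependent subtypes H1f1 to H1f5 differ in sequence and abundance between tissues. H1f1, the subtype with the lowest F test p of the members (adjusted p = 6.9e-07), read 6.58 and 6.53 in HSC, 7.27 and 7.22 in LMPP, 7.57 and 7.92 in flt3+ CMP and 8.63 and 8.38 in flt3- CMP. Its values were 8.35 and 8.01 in CLP, 4.98 in EILP and 6.23 and 7.26 in NK, and 4.21 and 4.22 in ETP and 7.35 and 7.46 in DN3. Both ETP arrays and the EILP array lay below all 14 others, with the ETP pair below the median of all values. H1f5 read 9.20 and 9.30 in HSC, 9.28 and 9.80 in LMPP, 10.30 and 10.50 in flt3+ CMP and 11.32 and 11.48 in flt3- CMP. It was at 10.98 and 11.20 in CLP, 9.46 in EILP and 9.30 and 10.94 in NK, and at 5.37 and 7.41 in ETP and 10.64 and 10.84 in DN3. Here ETP alone was low, with 2.05 between its arrays, and EILP lay within the range of the HSC and LMPP arrays, 9.20 to 9.80. H1f2 stood at 4.73 and 5.03 in ETP and 5.51 and 6.10 in DN3, against 5.96 to 7.19 on the 13 marrow arrays. The H1f3 population means spanned 4.17 to 5.28, and the gene did not pass the F test.

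H2A forms a dimer with H2B in the nucleosome. H2ac15 gave 8.43 and 7.62 in HSC, 7.29 and 7.70 in LMPP, 7.23 and 8.53 in flt3+ CMP and 8.99 and 10.07 in flt3- CMP. It read 9.56 and 10.16 in CLP, 8.12 in EILP and 7.93 and 9.14 in NK, and 2.96 and 4.67 in ETP and 8.37 and 8.68 in DN3. The ETP arrays were the lowest of the 17, with 1.71 between them, and the 5 highest were the flt3- CMP and CLP arrays and NK replicate 2. H2ac10 had 7.08 and 8.18 in ETP and 10.26 and 10.21 in DN3, and 8.72 to 10.19 on the marrow arrays. For H2ac20 the ETP arrays read 4.84 and 5.10, the DN3 arrays 7.35 and 6.88 and the marrow arrays 5.53 to 7.88. H2ac21 had 7.04 and 7.66 in ETP, 8.69 and 9.36 in DN3 and 7.70 to 9.48 in marrow. In all 4 genes both ETP arrays lay below every marrow array. H2ac12 stayed between 2.18 and 2.63 on all 17 arrays.

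H2B completes the dimer with H2A. H2bc12 read 7.80 and 9.42 in HSC, 9.08 and 9.34 in LMPP, 9.37 and 9.01 in flt3+ CMP and 9.14 and 8.84 in flt3- CMP. It had 6.79 and 7.82 in CLP, 5.18 in EILP and 7.27 and 8.59 in NK, and 4.12 and 4.06 in ETP and 7.46 and 8.50 in DN3. ETP was lowest, EILP next, and CLP replicate 1 was the lowest array of the rest. H2bc12 lies head to head with H2ac12 (the stretch printed above separates their starts). The H2ac12 probe set reads far below the median of all values, so no contrast with H2bc12 can be drawn. H2bc18, on chromosome 3, had 7.40 and 7.41 in HSC, 7.62 and 7.85 in LMPP, 7.76 and 8.02 in flt3+ CMP and 7.80 and 8.14 in flt3- CMP. Its other values were 8.25 and 7.59 in CLP, 6.09 in EILP and 7.44 and 7.88 in NK, and 5.43 and 5.995 in ETP and 8.03 and 8.36 in DN3. The ETP pair and EILP were the 3 lowest arrays, and the other 14 lay between 7.40 and 8.36. The 5 other H2B genes did not pass the F test.

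H4 binds H3 at the core of the nucleosome. H4c9 passed the F test (limma adjusted p = 0.028) with values from 6.75 in ETP to 8.69 in CLP, and it is named here after its values were seen. H4c12 read 10.16 to 10.94 on all arrays. The other 5 H4 genes had means below the median of all values. H4f16 varied between 4.09 and 6.42, with the ETP arrays far apart at 4.09 and 6.32, and did not pass.

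ETP, the earliest T cell progenitors of the thymus, had lower values of 7 replication-dependent genes than LMPP, the marrow progenitors set against them here. Of 23 replication-dependent genes 7 fell and 0 rose, where 2.4% of all genes fell and 1.02% rose. The median difference over the 23 was -0.84, against 0.04 over all genes, and 20 of 23 differences were negative. The largest fall was of H2bc12, by 5.12 ± 0.52 (log2, SE, n = 2 against 2, limma adjusted p = 4.4e-05). H2ac15 fell by 3.68 ± 0.58 (adjusted p = 0.0019), H1f5 by 3.15 ± 0.54 (adjusted p = 0.0036) and H1f1 by 3.03 ± 0.26 (adjusted p = 8.7e-06). H2bc18 fell by 2.02 ± 0.25 (adjusted p = 0.00028), H1f2 by 1.77 ± 0.36 (adjusted p = 0.013) and H2ac10 by 1.63 ± 0.30 (adjusted p = 0.006). In none of the 7 did the ETP and LMPP arrays overlap. The share of all genes without overlap was not computed, so this adds nothing to the calls. ETP means of H2bc12 (4.09), H1f1 (4.22) and H2ac15 (3.81) were under 4.54, which leaves the size of those falls uncertain. The calls of H1f2 (without LMPP replicate 1, LMPP replicate 2 or ETP replicate 1) and H2ac10 (without LMPP replicate 1) did not hold with 1 array fewer. Over all alternatives their differences ranged from -1.92 to -1.62 and from -2.18 to -1.08. With only the ETP and LMPP arrays in the fit, H1f5 (adjusted p = 0.08) and H2ac10 (adjusted p = 0.12) were not called, their differences unchanged.

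DN3 thymocytes, a stage at which cells that have rearranged their T cell receptor beta gene begin to divide, had higher values of 9 replication-dependent genes than ETP. Of the 23 genes 9 rose and 0 fell, where 5.2% of all genes rose and 3.53% fell. Their median difference was 0.92, against -0.03 over all genes, and 21 of 23 were positive. H2ac15 rose by 4.71 ± 0.58 (n = 2 against 2, limma adjusted p = 0.00013), H1f5 by 4.35 ± 0.54 (adjusted p = 0.00014) and H2bc12 by 3.89 ± 0.52 (adjusted p = 0.00028). H1f1 rose by 3.19 ± 0.26 (adjusted p = 3e-06), H2ac10 by 2.61 ± 0.30 (adjusted p = 6.9e-05) and H2bc18 by 2.48 ± 0.25 (adjusted p = 2.6e-05). H2ac20, H2ac21 and H4c12 rose by less, 2.15 ± 0.52, 1.67 ± 0.29 and 0.64 ± 0.18. The calls of H2ac20 (1.91 to 2.38) and H4c12 (0.51 to 0.76) did not hold when any 1 of the 4 arrays was left out, nor did that of H4c12 after quantile normalization or with only the ETP and DN3 arrays in the fit. This comparison shares its ETP arrays with the one before, so opposite signs in them are not separate evidence, and it crosses the Y-linked split.

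Genes of the cell cycle moved with the histone genes in the thymic comparisons. A mitosis list of 17 measured genes had 16 lower in ETP than in LMPP and 17 higher in DN3 than in ETP. An S phase list of 22 had 4 lower and 17 higher. In the same comparisons 2.4% of all genes were lower and 5.2% higher. Averaged over the 15 replication-dependent genes at or above the median, the arrays read 5.59 and 6.05 in ETP and 7.62 and 7.85 in DN3, with population means of 5.82 and 7.74, and of 7.40 in HSC, 7.62 in LMPP, 7.90 in flt3+ CMP, 8.17 in flt3- CMP, 8.12 in CLP, 6.82 in EILP and 7.60 in NK. Over all 23 genes the differences were smaller, with means of 4.88 in ETP, 6.28 in DN3, 6.09 in LMPP and 5.54 in EILP. The S phase list averaged 7.42 in ETP, 7.62 in NK and 7.82 to 8.43 elsewhere, and the mitosis list 6.99 in ETP and 8.15 to 9.14 elsewhere. ETP was thus the lowest population on all 3 averages. The neutrophil list, at 11.14 in LMPP and 5.30 in ETP, moved the same way from LMPP to ETP, and its part in the result was not tested.

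**Figure D2:**
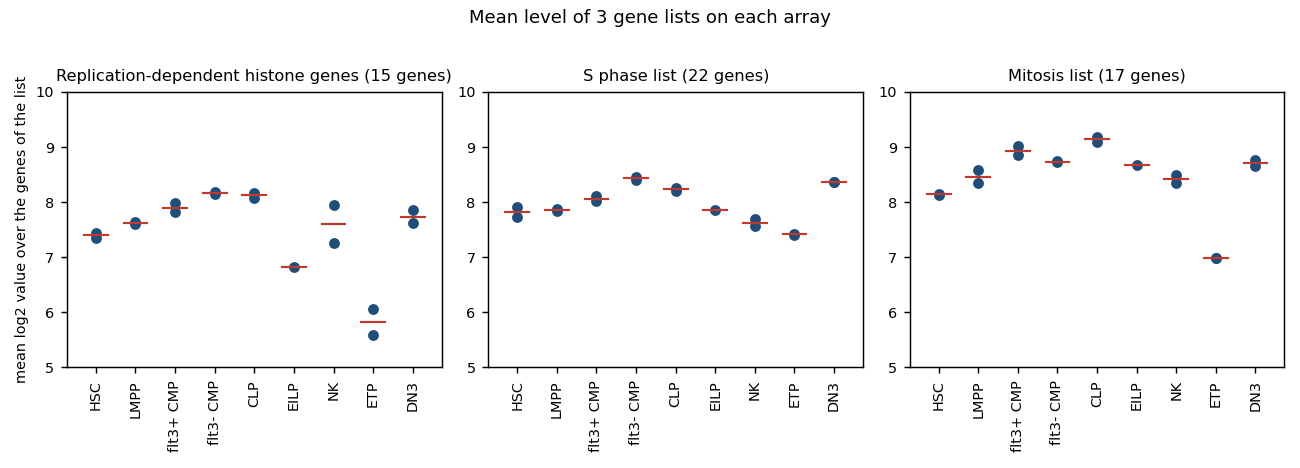
Mean log2 value (y axis) on each array over 15 replication-dependent histone genes, 22 S phase genes and 17 mitosis genes, by population (x axis), with a point per array and a red line at the population mean. ETP is lowest in each panel, while EILP is low in the histone panel (6.82) and lies near LMPP in the S phase panel (7.87 against 7.86).

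EILP, the bone marrow progenitor of innate lymphoid cells, had lower values of 3 replication-dependent genes than LMPP. Of 23 genes 3 fell and 0 rose, where 1.79% of all genes fell and 2.1% rose, and their median difference was -0.30 against -0.0009 over all genes. H2bc12 fell by 4.03 ± 0.64 (n = 1 against 2, limma adjusted p = 0.0027), H1f1 by 2.27 ± 0.32 (adjusted p = 0.0011) and H2bc18 by 1.64 ± 0.31 (adjusted p = 0.0085). H1f5 (-0.08 ± 0.66) and H2ac15 (0.62 ± 0.71) did not pass. Of the S phase list 1 gene rose and 0 fell. Of the mitosis list limma called 0 of 17, with 3 higher and 0 lower at an unadjusted p under 0.05. At that threshold 7.28% of all genes were higher and 7.16% lower. The H2bc18 call did not hold without LMPP replicate 2 (-1.53, adjusted p = 0.054).

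Against CLP, H1f1 (-3.19 ± 0.32, limma adjusted p = 0.00033) and H2bc18 (-1.83 ± 0.31, adjusted p = 0.023) fell in EILP, 2 of 23 genes where 0.325% of all genes fell and 0.0406% rose. The median difference of the 23 was -0.80, against 0.05 over all genes. At an unadjusted p under 0.05, 10 of the 23 were lower, where 4.70% of all genes were. H2bc12, at 5.18 in EILP and 7.31 in CLP, did not pass. Both populations lie on the same side of the Y-linked split, and their neutrophil averages were 11.96 and 11.84. The H2bc18 call did not hold without CLP replicate 1 (-1.49), and with only the EILP and CLP arrays in the fit neither gene, nor any other gene, was called by limma (H1f1 adjusted p = 0.08).

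Against NK cells the same 3 genes fell as against LMPP, where 1.91% of all genes fell and 1.57% rose. H2bc12 fell by 2.76 ± 0.64 (limma adjusted p = 0.03), H1f1 by 1.76 ± 0.32 (adjusted p = 0.0065) and H2bc18 by 1.56 ± 0.31 (adjusted p = 0.012). The NK arrays themselves lay apart, at 7.27 and 8.59 for H2bc12 and 6.23 and 7.26 for H1f1, with the EILP array below both. H2bc12 (-2.09) and H2bc18 (-1.35) were not called without NK replicate 2, and none of the 3 with only the EILP and NK arrays in the fit. The 3 EILP comparisons share the single EILP array, so they are not independent of each other.

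**Figure D3:**
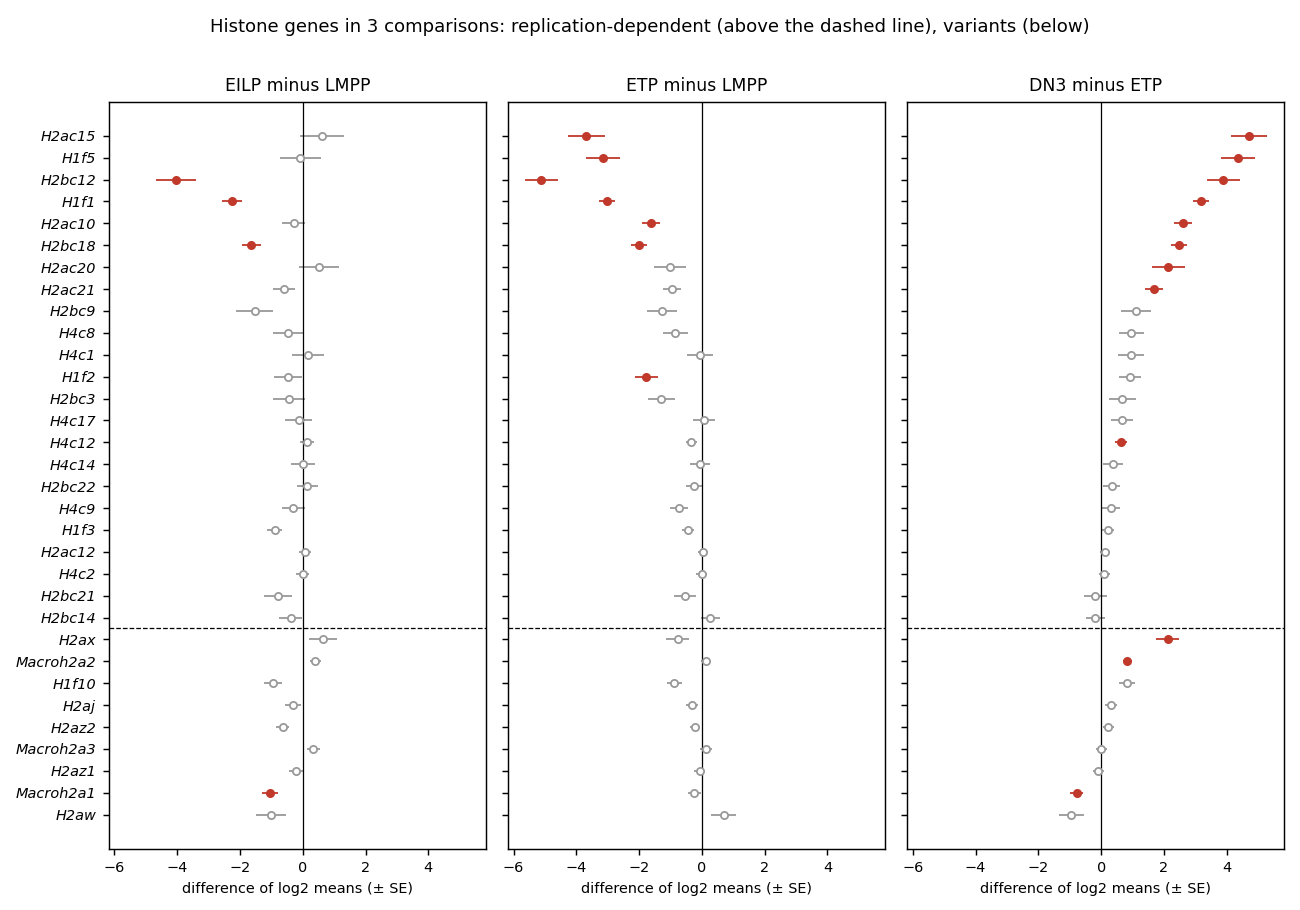
Differences of log2 means (x axis, points, with SE bars) of the 23 replication-dependent genes (above the dashed line) and 9 variant genes (below it) in EILP minus LMPP, ETP minus LMPP and DN3 minus ETP, with called genes in filled red and the others open. H2bc12, H1f1 and H2bc18 are the red points above the line in EILP minus LMPP, and H2ac15 and H1f5 lie near 0 there and far below 0 in ETP minus LMPP.

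A direct comparison of ETP with EILP, added after the data were seen, tested the difference between those low populations. From EILP to ETP H2ac15 fell by 4.30 ± 0.71 (n = 2 against 1, limma adjusted p = 0.0014), H1f5 fell by 3.07 ± 0.66 (adjusted p = 0.0096) and H2ac10 fell by 1.34 ± 0.36 (adjusted p = 0.036), 3 of 23 where 4.79% of all genes fell and 3.4% rose. H1f1 (-0.77 ± 0.32, adjusted p = 0.19), H2bc12 (-1.09 ± 0.64, adjusted p = 0.41) and H2bc18 (-0.38 ± 0.31, adjusted p = 0.59) did not pass, which does not show that they were equal. The H2ac10 call did not hold without ETP replicate 1 (-0.79). With only the ETP and EILP arrays in the fit, H1f5 (adjusted p = 0.055), H2ac10 (adjusted p = 0.18), H2aw and H2ab1 were not called. The variant gene H2aw rose by 1.70 ± 0.49 (adjusted p = 0.047, lost without ETP replicate 2) and the germline gene H2ab1 by 0.81 ± 0.21 (adjusted p = 0.03, lost without ETP replicate 1). All 17 mitosis genes were lower in ETP than in EILP, and 5 of 22 S phase genes. The comparison crosses the Y-linked split.

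From HSC to flt3- CMP 3 of 23 replication-dependent genes rose, where 2.4% of all genes rose, and 0 fell, where 1.82% did. They were H1f5 (2.15 ± 0.54, n = 2 against 2, limma adjusted p = 0.04), H1f1 (1.95 ± 0.26, adjusted p = 0.0013) and H2ac21 (1.14 ± 0.29, adjusted p = 0.042). In the same comparison 6 of 22 S phase genes and 1 of 17 mitosis genes rose. H1f1 kept its call under every alternative, and H1f5 and H2ac21 were not called when any 1 of the 4 arrays was left out or after quantile normalization (2.07 to 2.24 and 0.76 to 1.33 over all alternatives). H2ac21 was also not called with its probe sets averaged (0.76, adjusted p = 0.064). Between LMPP and HSC, and between the 2 CMP populations, 0 of 23 were called by limma, where 0.6% and 0.108% of all genes were called. At an unadjusted p under 0.05, 1 was higher and 0 lower in LMPP than in HSC, where 3.37% and 4.03% of all genes were. In flt3+ CMP against flt3- CMP 1 was higher and 2 lower at that threshold, where 2.99% and 6.32% of all genes were.

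From LMPP to CLP limma called 1 replication-dependent gene higher and 1 lower. The median difference of the 23 was 0.19, against -0.05 over all genes. Of the 23 differences 18 were positive, where 41.3% of all genes had a positive one. At an unadjusted p under 0.05, 7 were higher and 1 lower, where 8.79% and 8.18% of all genes were. H2ac15 rose by 2.37 ± 0.58 (n = 2 against 2, limma adjusted p = 0.026), and H2bc12 fell by 1.90 ± 0.52 (adjusted p = 0.047), 1 gene of 23 each way where 3.75% of all genes rose and 2.2% fell. With each array centred on its median 3 rose and 0 fell, and H2bc12 (-1.80, adjusted p = 0.056) was not called. Of the mitosis list 6 of 17 genes rose, and of the S phase list 3 of 22. In NK cells H1f1 was the 1 replication-dependent gene below CLP (-1.43 ± 0.26, adjusted p = 0.0042), where 3.17% of all genes were lower and 3.22% higher, with 8 of 17 mitosis and 5 of 22 S phase genes lower too. The H2ac15 and H2bc12 calls were lost when any 1 of the 4 arrays was left out (2.07 to 2.67 and -2.42 to -1.39 over all alternatives), and that of H1f1 without CLP replicate 1 (-1.26). These 2 comparisons cross the Y-linked split.

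Of the 9 variant genes 2 rose and 1 fell from ETP to DN3, where 5.2% of all genes rose and 3.53% fell. Between ETP and LMPP limma called 0 of the 9, with 0 higher and 1 lower at an unadjusted p under 0.05, where 7.16% and 7.25% of all genes were. H2ax, the variant phosphorylated around DNA breaks, is unusual in giving both stem-loop and polyadenylated mRNA. It read 6.88 and 7.12 in ETP and 9.03 and 9.21 in DN3, a rise of 2.12 ± 0.37 (n = 2 against 2, limma adjusted p = 0.0022). On the marrow arrays it lay between 7.29 and 9.19, so both ETP arrays were below all of them, although ETP minus LMPP (-0.77) did not pass.

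Macroh2a1, which encodes a variant with a large extra domain found in silenced chromatin such as the inactive X chromosome, had another order of populations. It read 9.11 and 8.82 in HSC, 9.92 and 10.06 in LMPP, 9.83 and 10.22 in flt3+ CMP and 9.53 and 9.84 in flt3- CMP. It then had 9.11 and 9.33 in CLP, 8.96 in EILP and 8.15 and 8.43 in NK, and 9.62 and 9.89 in ETP and 8.78 and 9.18 in DN3. Every LMPP, CMP and ETP array was at 9.53 or above and every other array at 9.33 or below, with NK lowest. The gene rose from HSC to LMPP by 1.03 ± 0.20 (limma adjusted p = 0.04), the 1 histone gene called there. It fell from LMPP to CLP by 0.77 ± 0.20 (adjusted p = 0.04), from LMPP to EILP by 1.03 ± 0.25 (adjusted p = 0.036), from CLP to NK by 0.93 ± 0.20 (adjusted p = 0.015) and from ETP to DN3 by 0.77 ± 0.20 (adjusted p = 0.031). The last 4 cross the Y-linked split, and each of the 5 calls was lost when at least 1 array was left out. The calls from HSC to LMPP and from LMPP to CLP were lost without each array in turn, that from LMPP to EILP without either LMPP array, that from CLP to NK without CLP replicate 2 or NK replicate 1, and that from ETP to DN3 without ETP replicate 2 or DN3 replicate 1. The call from LMPP to CLP was also lost with centred arrays (-0.67), and the other 4 with only the compared populations in the fit. Macroh2a2, the related gene, was below the median of all values on every array and read 3.56 and 3.48 in ETP and 4.36 and 4.36 in DN3, a rise of 0.84 ± 0.15 (adjusted p = 0.0027, and 0.051 with only the ETP and DN3 arrays in the fit).

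**Figure D4:**
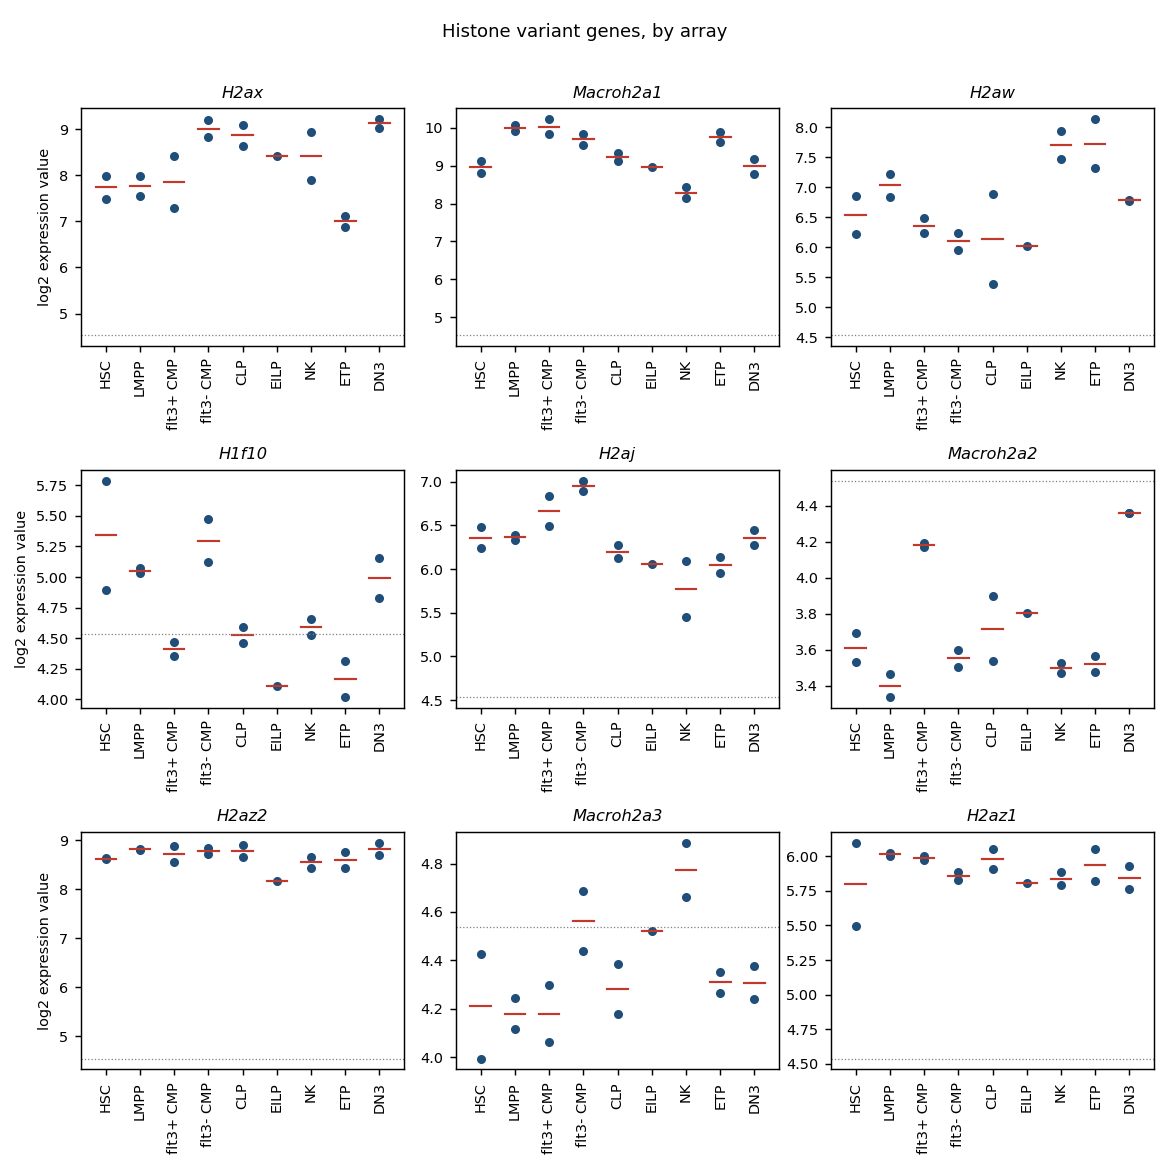
Log2 expression values (y axis, scaled to each gene) of the 9 histone variant genes in the 9 populations (x axis), with a point per array, a red line at the population mean and a dotted line at 4.54, the median of all values. H2ax is lowest in ETP (6.88 and 7.12) and highest in DN3 (9.03 and 9.21 against 8.83 and 9.19 in flt3- CMP), and Macroh2a1 is highest in flt3+ CMP (10.03) and lowest in NK (8.29).

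H2aw, an H2A gene counted with the variants by its symbol, read 7.93 and 7.46 in NK and 6.88 and 5.39 in CLP. It was higher in NK by 1.56 ± 0.40 (n = 2 against 2, limma adjusted p = 0.032). The CLP arrays lay 1.49 apart, and the call was lost without CLP replicate 2 (0.82), NK replicate 1 (1.33) or NK replicate 2 (1.79), and with only the CLP and NK arrays in the fit. H2az1 and H2az2 encode forms of H2A.Z, a variant placed at promoters. H2az1 spanned 5.50 to 6.10 over all arrays and H2az2 from 8.17 in EILP upward to 8.95, and neither passed the F test (adjusted p = 0.94 and 0.34). H1f10, a replication-independent linker histone, ranged from 4.02 in ETP to 5.79 in HSC, and H2aj from 5.45 in NK to 7.01 in flt3- CMP, and both passed the F test (adjusted p = 0.011 and 0.018) with no call in the 10 comparisons.

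Germline histones replace others in germ cells, and 12 of the 16 genes had means below the median of all values. H2ab1, of the short H2A.B type, read 6.22 and 5.98 in ETP, 5.40 and 5.29 in LMPP and 4.88 and 5.32 in DN3. It was higher in ETP than in LMPP by 0.76 ± 0.17 (n = 2 against 2, limma adjusted p = 0.027) and fell from ETP to DN3 by 1.00 ± 0.17 (adjusted p = 0.0021), and both calls were lost with the mean of its probe sets (0.42 and -0.38) and with only the compared populations in the fit. The first was also lost without LMPP replicate 1, LMPP replicate 2 or ETP replicate 1. H2al1m passed the F test among the populations and no comparison. The other 14 germline genes were called in neither.

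Probe sets that match several histone genes could not be given to 1 gene, and 36 of them (H2A 11, H2B 6, H3 12, H4 7) were read in a fit over all probe sets added after the data were seen. From LMPP to ETP 3 fell and 0 rose, where 1.23% of all probe sets fell and 0.537% rose, and their median difference was -0.77. From ETP to DN3 10 rose and 1 fell, where 2.63% rose and 2.35% fell. The rise was of H2A in 6 of 11 probe sets (median difference 2.16), H2B in 2 of 6 and H4 in 2 of 7, and the fall was in H2B. Median levels in LMPP, ETP and DN3 were 7.27, 5.70 and 8.75 for H2A. They were 9.36, 9.46 and 8.16 for H2B and 4.02, 4.59 and 4.87 for H4, so ETP was not lowest there. Median differences from LMPP to ETP were -0.81 for H2B and -0.47 for H4, with single probe sets up to 1.00 and 2.18. The 12 H3 probe sets had a median difference of 0.08 from ETP to DN3, with 0 called by limma and 3 higher at an unadjusted p under 0.05. From LMPP to ETP the median difference of the H3 probe sets was -0.49, with single probe sets from -2.75 to 0.72. There limma called 0, and 3 were lower at an unadjusted p under 0.05. The median level of the H3 probe sets was 3.36 to 4.33 across populations, below the median of all values. The highest population mean of a single H3 probe set was 9.68. Of the 7 probe sets of H3.3, the variant H3 made through the cell cycle, 0 were called by limma in either comparison, with 0 and 1 at an unadjusted p under 0.05, and their median level lay between 8.87 and 9.57. The share of all probe sets at that unadjusted threshold was not computed.

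Of a list of 41 genes for the supply and handling of histones, 38 were measured. From ETP to DN3 11 of the 38 rose, where 5.2% of all genes did, and 0 fell. From LMPP to ETP 3 fell, where 2.4% of all genes did, and 0 rose. Chaf1a, a subunit of the chaperone that places H3 and H4 on copied DNA, read 5.43 and 4.78 in ETP and 6.59 and 7.01 in DN3, a rise of 1.70 ± 0.21. Asf1b, which hands H3 and H4 to that chaperone, read 5.85 and 5.25 in ETP and 7.39 and 7.20 in DN3, a rise of 1.74 ± 0.27. Slbp, whose protein binds the stem-loop of histone mRNA, read 8.29 and 7.79 in ETP and 9.04 and 8.78 in DN3, a rise of 0.87 ± 0.20 (limma adjusted p = 0.014). Asf1b, Chaf1a and Cenpa, the centromeric H3 variant, were the 3 that fell from LMPP to ETP, by 1.06, 0.94 and 0.91.

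Against LMPP 0 of the 38 supply genes were called in EILP by limma, where 2.1% of all genes rose and 1.79% fell. At an unadjusted p under 0.05, 3 of the 38 were higher and 2 lower, where 7.28% and 7.16% of all genes were. Against CLP 2 of 38 fell, where 0.325% of all genes did, Chaf1a by 1.52 and Anp32e, a chaperone that removes H2A.Z, by 1.05. Chaf1a read 5.51 in EILP and 7.04 and 7.04 in CLP. Against NK cells Cdk2, a kinase of S phase entry, was the 1 supply gene called, higher in EILP by 1.65, where 1.57% of all genes were higher, and it fell from CLP to NK by 1.82. From HSC to flt3- CMP 5 of 38 rose, where 2.4% of all genes did. Chaf1a rose by 1.19, together with Daxx, a chaperone of H3.3, by 0.99, Cenpa by 0.91, Supt16 and Cpsf2.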

How the data were processed

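Log2 expression values for 41345 probe sets on 17 arrays were deposited by the authors. They were made with Affymetrix Expression Console, per the submitters' processing notes. The version and the algorithm (background correction, scaling, summary) are not given in the sources, and a scaling that forces arrays to one distribution would hide a global shift in RNA. The unit was read from the values. The columns of per-sample values were all matched to samples, and the intensity files were left out.

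The platform annotation lists 25335 probe sets. Of these 23521 had 1 symbol and 1814 had several, and the other probe sets of the table were unnamed here. For the 1082 genes with several probe sets the one with the highest mean was kept, which left 22180 genes. Members followed the symbol rule given at the opening. H2bfm was counted as a germline gene, since RefSeq gives it a synonym of the H2bl type. The members and lists were chosen with earlier results of these data known.

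The model had a mean for each population and used every array, in limma 3.58.1 under R 4.3.3 (lmFit, eBayes, 8 residual and 5.33 prior degrees of freedom), two-sided, with no filter on low values. EILP, with 1 array, is assumed to vary like the other populations. P-values were adjusted by the Benjamini-Hochberg method over all 22180 genes, within each of 10 comparisons and 1 added later, and values under 0.05 were called. ± is the SE of the fit. The median SE over genes was 0.24 in comparisons with EILP and 0.20 in the others, so the number of arrays limits the precision. The method was tested on simulated arrays first. Named members were the 8 with the largest range among those past the F test in each class, up to 6 in each direction per comparison, and the widely expressed variants. Alternatives were centring, quantile normalization, averaging a gene's probe sets, removing dim genes, a variance trend, the replicate number as a block, only the populations compared, and leaving out each array. Promoters were RefSeq's (GRCm38.p6).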

Additional observations from a re-analysis of the deposited data

How the results depend on the processing

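No called difference changed sign under an alternative, and 16 of 45 kept their call under every one. Counts that stayed within 1.5 times were the 7 replication-dependent genes between LMPP and ETP, the 9 between ETP and DN3 and the 3 between LMPP and EILP, and the 10 replication-dependent and 6 variant genes of the F test. With only the populations compared in the fit, which leaves fewer arrays to estimate the spread, replication-dependent counts became 4 in CLP minus LMPP (in place of 2), and 0 in EILP minus CLP (2), EILP minus NK (3) and NK minus CLP (1), where limma gave 10 replication-dependent genes at an unadjusted p under 0.05 in EILP minus CLP and 7 in EILP minus NK. The share of all genes at that unadjusted threshold was not computed in these fits. Variant counts became 0 in LMPP minus HSC (1), EILP minus LMPP (1) and NK minus CLP (2), 1 in DN3 minus ETP (3) and 1 in flt3- CMP minus HSC (0). Centring gave 3 replication-dependent genes in NK minus CLP and 0 variants in CLP minus LMPP (1), and it shifted the median of all genes by 0.10 in CLP minus LMPP and -0.15 in NK minus CLP. Quantile normalization left 1 of 3 in flt3- CMP minus HSC. Leaving out dim genes, or a variance trend, gave 2 in NK minus CLP and 1 variant in flt3- CMP minus HSC, and dim genes left out also 1 variant in ETP minus LMPP. The replicate number as a block gave 1 variant (0) in flt3- CMP minus HSC and in ETP minus LMPP, 8 replication-dependent genes in ETP minus LMPP and 9 in DN3 minus ETP. Over all genes, the differences between replicates 1 and 2 were little correlated between populations (correlations from -0.07 to 0.09 over 28 pairs of populations). Whether same-numbered arrays share a batch was not tested. Without 1 array, replication-dependent counts ranged over 1 to 1 in flt3- CMP minus HSC, 0 to 1 in CLP minus LMPP, 1 to 2 in EILP minus CLP, 1 to 3 in EILP minus NK and 0 to 2 in NK minus CLP. Variant counts ranged over 0 to 0 in LMPP minus HSC and EILP minus LMPP, 0 to 1 in CLP minus LMPP and 0 to 2 in NK minus CLP. The median over replication-dependent genes in LMPP minus HSC, 0.14, was -0.02 without LMPP replicate 1. Except where the fit's own construction is named, the cause was not tested.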
